A study of Mus musculus with 32 samples.

Results

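The response to LPS of Trem2 knockout macrophages kept in normal M-CSF was read from 8 of the 32 libraries of the series. LPS (lipopolysaccharide) is the outer-membrane glycolipid of Gram-negative bacteria, and M-CSF is the growth factor that keeps macrophages alive. The 8 libraries were chosen by their labels alone: 4 carry the labels T2KO, normal M-CSF and LPS, and 4 carry the same genotype and M-CSF labels without LPS. All are of bone marrow-derived macrophages, cells grown in culture from marrow precursors, of C57BL/6 mice. Both groups lack Trem2, through the Trem2–/– allele that the labels trace to Turnbull and colleagues, so the comparison is of LPS within a single genotype. LPS was given at 10 ng/ml for 4 hours. Cells had been in complete RPMI with LCCM overnight, at 0.5% or 10%, and the labels do not say which of these is called low or normal M-CSF. Cells of 2 further pairs of groups served as comparators: WT cells in normal M-CSF with and without LPS, and T2KO cells in low M-CSF with and without LPS, each with 4 libraries a group. Nothing in the labels tells if replicate libraries are of different animals or dishes, and p-values therefore measure only the spread between libraries, which may be technical.

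Trem2 itself was read first, as a check of the labels. Knockout libraries without LPS held 30.5, 36.3, 35.8 and 42.6 CPM (a gene's counts scaled to a common library size), and those with LPS held 5.899, 4.94, 9.01 and 3.65 CPM. WT libraries held 363, 254, 319 and 286 CPM without LPS and 240.3, 194, 253 and 216 CPM with it. The knockout mean was 11.9% of the WT mean without LPS and 2.6% with LPS, and no knockout library reached a WT library (exact permutation test, two-sided, p = 0.0286 for each, the smallest that 4 against 4 allows). The reads come from the 3' end of transcripts and the labels do not say which part of the gene was removed, so the remaining counts do not bear on whether protein is made.

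The 8 libraries held 4451472 to 9148889 counts. Scaling factors for composition were 0.903 to 0.957 with LPS and 1.28 to 1.36 without, so the groups did not overlap in this measure. In both groups, libraries 1 and 3 resembled each other more than the rest, as did libraries 2 and 4: the chi-square per degree of freedom was 4.59 to 8.09 for these pairs and 11.8 to 35.7 for the other pairs of the same group. All pairs differed by more than sampling noise, which does not show that the libraries of a pair are independent. Each library was kept as a replicate, and whether 4 independent units stand behind a group was not tested. Counts of changed genes with the paired libraries summed are given where they differ most. Macrophage markers were high throughout, at 6129 to 6274 CPM in sum without LPS and 8526 to 9399 CPM with it. The 11 neutrophil markers in the table summed to 83.8 to 92.3 CPM without LPS and 124 to 180.2 CPM with it, and 6 of the 10 tested rose. The 10 dendritic cell markers summed to 60.9 to 96.4 CPM and 179 to 257 CPM, most of it the interferon-inducible Bst2, and the 10 stromal and endothelial markers to 12.9 to 18.3 CPM and 33.2 to 38.5 CPM. The 10 lymphocyte markers stayed at or below 5.74 CPM in sum, with Cd8a, Cd79a and Ncr1 at 0. Erythroid, mast cell and megakaryocyte markers stayed at or below 1.64 CPM in sum. The dendritic cell markers Zbtb46 and Cd209a were at 0 in all 8 libraries and Flt3 had 2 counts in each group. The part of such cells in the results was not tested. In bulk libraries, more cells of a type and more RNA per cell cannot be told apart.

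LPS is bound by CD14 and MD-2 and presented to the receptor TLR4. TLR4 signals through MyD88 to the NF-kB transcription factors, which drive cytokine and chemokine genes, and through TRIF to IRF3, which starts interferon beta; secreted interferon then turns on a further set of genes. In macrophages the same stimulus switches on the inhibitors that later shut the pathway down. TREM2 is a lipid-binding receptor of macrophages and microglia that signals through the adaptor DAP12.

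Of 11244 genes tested, 2349 (20.9%) rose and 2447 (21.8%) fell with LPS at an adjusted p under 0.05 in edgeR's quasi-likelihood test, 4796 (42.7%) in either direction. The rises reached further than the falls: 245 risen genes had a log2 change of 4 or more, and 49 fallen genes of -4 or less. Changes shown to exceed 2-fold numbered 925 upwards (8.23%) and 638 downwards (5.67%). The libraries of the groups did not overlap in 21.1% of genes with LPS above and 21% with LPS below. Few of the 2349 risen genes started from nothing: 37 had no count in the untreated libraries and 125 had under 10, and such genes passed the filter on low counts through other groups than the untreated one. All levels below are CPM, given per library or as mean ± SD over the 4 libraries of a group, and changes are log2 of LPS against untreated. The standard error (SE) given with a change is approximate. It is the size of the fitted change divided by the square root of the test's F statistic.

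**Figure D1:**
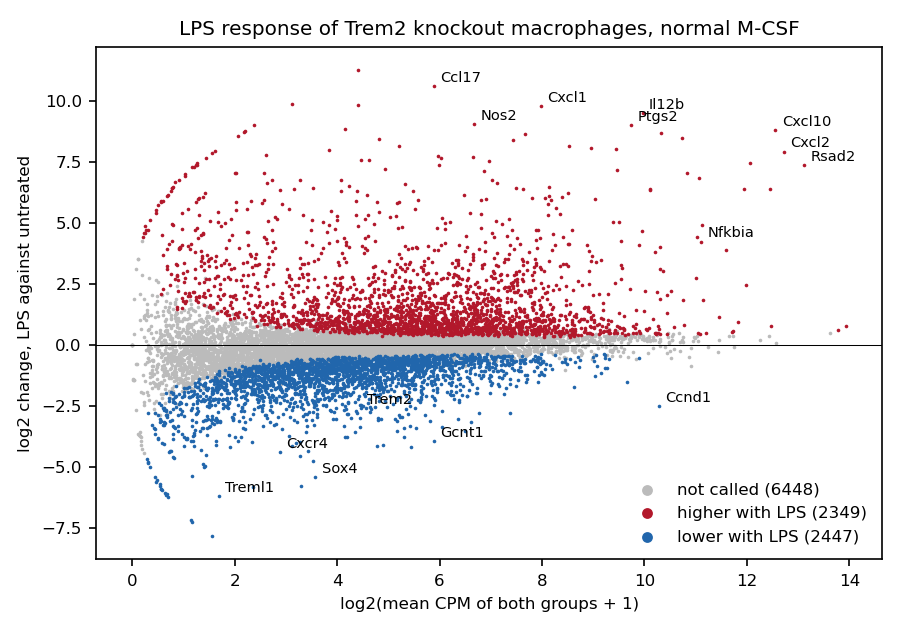
Each point is 1 of the 11244 genes tested, with its mean level on a log2 scale across and its log2 change with LPS upwards; red marks the 2349 that rose, blue the 2447 that fell and grey the rest. The curved edges are genes near 0 counts in a group, whose fitted change depends on the prior count; rises extend beyond 8 at high levels and falls seldom pass -4.

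Named first are the 15 largest rises among called genes whose groups did not overlap and whose higher group had a mean of at least 20 CPM. Serpina3g, a serine protease inhibitor with close paralogs beside it, had no count without LPS and 42.6, 38.8, 38.98 and 42.3 CPM with it, at least 472-fold higher than the 3 counts that a total of 0 allows over the 4 libraries. Ccl17, a chemokine that attracts CCR4-bearing T cells, had 2 counts in all without LPS and 102, 135, 77.03 and 149 CPM with it, a ratio of 1929 (95% counting interval 534 to 15940). The neutrophil attractant Cxcl1 stood at 0.724, 0.607, 0.332 and 0.620 CPM without LPS and 599.7, 517, 497 and 390.0 CPM with it, a log2 change of 9.78 (SE 0.49). As the rule requires, every LPS library of these genes lay above every untreated library. The others were Gm13889, Il12b, Nos2, Ptgs2, Shisa3, Cxcl10, Ccl5, Il6, Il1b, Adamts4, Edn1 and Ccl22. Edn1, which encodes the vasoconstrictor endothelin-1, went from 1.04 ± 0.561 to 341 ± 99.1 CPM. Adamts4, a protease of the extracellular matrix, went from 0.109 ± 0.156 to 54.2 ± 13.7 CPM. Gm13889 and Shisa3 had 1 and 2 counts without LPS, and their ratios were 1377 (95% counting interval 246 to 54430) and 571 (95% counting interval 158 to 4726).

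The 15 largest falls were taken by the same rule. Sox4, a transcription factor of progenitor cells, stood at 20.8, 25.2, 23.2 and 16.1 CPM without LPS and 0.437, 0.742, 0.117 and 0.830 CPM with it, a log2 change of -5.42 (SE 0.35). Lpar5, a receptor for lysophosphatidic acid, stood at 19.96, 18.5, 18.7 and 24.2 CPM without LPS and 0.874, 0.989, 0.702 and 0.498 CPM with it. As the rule requires, in neither gene did a library of one group reach the other. Lpin1, a phosphatidate phosphatase of triglyceride synthesis, fell from 50.4 ± 7.12 to 2.79 ± 1.79 CPM, with LPS library 4 at 5.479 CPM against 1.76 to 1.98 CPM in the others. The glycosyltransferase Gcnt1 fell from 109 ± 28.1 to 7.06 ± 1.99 CPM. The transcription factor Lyl1 fell from 54.4 ± 9.604 to 3.16 ± 0.970 CPM, and Mnt, which opposes MYC, from 38.04 ± 8.46 to 3.501 ± 1.94 CPM. The rest of the 15 were Lhfpl2, Cdca7, 2900026A02Rik, Ccsap, Slc26a11, E2f2, Arl4c, Rasgrp3 and Rab3il1, with log2 changes from -4.18 to -3.402. Among genes that no list holds, Tnfaip2, H3f3b, Clic4, Marcksl1 and Sdc4 had the highest levels of those that rose, with Tnfaip2 at 189.9 ± 18.8 and 3998 ± 1353 CPM. Those of the highest level that fell were Dab2, an endocytic adaptor, at 1211 ± 214 and 414 ± 11.7 CPM, and Cyth4, Slc38a2, Zfp36l1 and Rap2a.

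The sensing machinery moved unevenly. Of 19 tested genes of the LPS receptor complex and its adaptors (20 in the table), 8 rose, 4 fell and 7 did not pass the test, and their median log2 change was 0.32 against -0.05 over all genes. Cd14, the LPS co-receptor, stood at 113, 141, 127 and 175 CPM without LPS and 1339, 1144, 1457 and 1442 CPM with it, a log2 change of 3.27 (SE 0.19). The adaptor Myd88 stood at 31.96, 37.8, 37.8 and 33.5 CPM without LPS and 232, 281, 234 and 288 CPM with it. Both were higher in all 4 LPS libraries. Irak2, a kinase of the MyD88 complex, rose from 15.3 ± 1.65 to 148 ± 9.18 CPM, and its inhibitory relative Irak3 from 30.3 ± 13.3 to 162 ± 42.3 CPM. Tlr4 itself fell, from 37.5, 41.7, 40.2 and 40.5 CPM to 27.1, 28.4, 33.7 and 20.4 CPM, a log2 change of -0.54 (SE 0.19). The Tlr4 call was lost without LPS library 4 (adjusted p = 0.0848). Ly96, which encodes MD-2, had a log2 change of 0.60, and the call was lost without any of 4 single libraries, at an adjusted p of up to 0.13. The other 3 that fell were Sigirr, Irak1 and Irak4, and their calls were lost without any of 3, 5 and 2 single libraries, at adjusted p-values of up to 0.0706, 0.0995 and 0.0971. Traf6, the ubiquitin ligase downstream of the IRAK kinases, stood at 10.7 ± 1.45 and 9.35 ± 1.03 CPM and did not pass the test.

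Receptors for other microbial products rose more evenly: 18 of 21 rose, 2 fell and 1 did not pass the test, with a median log2 change of 2.40. Tlr2, for bacterial lipoproteins, rose from 26.2 ± 2.05 to 276 ± 28.02 CPM. Nod2, a cytosolic sensor of cell wall fragments, rose from 1.47 ± 0.938 to 39.1 ± 3.67 CPM, and Tlr3, for double-stranded RNA, from 6.38 ± 0.249 to 63.6 ± 9.29 CPM. The lectin Clec4e (Mincle) rose from 75.3 ± 5.46 to 1891 ± 171 CPM. The pair that fell were Tlr13, a receptor for bacterial ribosomal RNA, from 122 ± 4.297 to 29.4 ± 3.85 CPM, and Tlr5, for flagellin, from 2.77 ± 0.404 to 0.247 ± 0.314 CPM.

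NF-kB subunits and their own inhibitors rose together. Of 14 genes for NF-kB subunits and the kinases that feed them, 13 rose and 1, the kinase Map3k14, fell; the median was 2.65. Nfkb1, for the p105 precursor of p50, stood at 46.96, 48.7, 56.1 and 59.1 CPM without LPS and 359.6, 289.5, 338 and 354 CPM with it. Nfkb2, Rel, Relb and Bcl3 had log2 changes of 3.27, 2.75, 2.64 and 3.32, and Rela, the subunit that pre-exists in resting cells, of 1.11. Of 17 feedback inhibitors, 15 rose, none fell, and Cyld and Tnip2 did not pass the test; all 15 rises exceeded 2-fold, and the median was 2.90. Nfkbia, for the inhibitor that holds NF-kB in the cytoplasm, stood at 253, 198, 223 and 227 CPM without LPS and 4489, 4131, 3548 and 4625 CPM with it, a log2 change of 4.22 (SE 0.20). Nfkbiz, a nuclear cofactor needed for Il6 transcription, stood at 18.3, 18.97, 16.2 and 12.1 CPM without LPS and 1171, 975, 954 and 995 CPM with it. Tnfaip3, for the deubiquitinase A20, stood at 5.28, 10.6, 6.88 and 33.5 CPM without LPS and 306, 269, 336 and 307 CPM with it. The groups did not overlap in any of the 3, though untreated library 4 of Tnfaip3 was well above its fellows. The RNA-destabilising proteins Zfp36 and Zc3h12a, which shorten the life of cytokine messages, went from 24.8 ± 5.77 to 569 ± 83.05 CPM and from 2.51 ± 0.552 to 68.2 ± 8.201 CPM. The phosphatase Dusp2, which switches off MAP kinases, went from 1.16 ± 1.32 to 86.2 ± 6.66 CPM.

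Other transcription factor families moved in part. Of 21 tested AP-1, EGR and KLF genes (22 in the table), 13 rose, 2 fell and 6 did not pass the test, with a median of 1.43. Junb and Egr1 rose by log2 changes of 3.37 and 4.21, and the AP-1 relatives Atf3 and Batf2 by 2.77 and 5.303; Jun, at 276 ± 42.5 and 389.7 ± 57.99 CPM, did not pass. The pair that fell were Klf10 and Klf2, a factor of quiescence, which stood at 29.6, 28.5, 30.8 and 32.9 CPM without LPS and 4.59, 4.94, 5.38 and 2.16 CPM with it. Of 18 IRF, STAT and JAK genes, 11 rose and 1 fell. Irf7, which amplifies interferon production, stood at 29.8, 19.9, 19.6 and 22.5 CPM without LPS and 491, 392, 523 and 374 CPM with it. Irf1, Stat2 and Jak2 rose by log2 changes of 3.81, 2.54 and 3.48. SOCS proteins block JAK signalling, and 5 of 8 SOCS genes rose while Socs5 fell (-0.90). Socs3 had the largest change among them, from 3.31, 3.19, 1.82 and 2.17 CPM without LPS to 493, 856, 482 and 1115 CPM with it. LPS libraries 2 and 4 of Socs3 were above libraries 1 and 3, and all 4 were above the untreated range. Socs1 went from 2.94 ± 1.297 to 274 ± 75.5 CPM and Cish from 0.218 ± 0.180 to 41.7 ± 6.73 CPM.

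**Figure D2:**
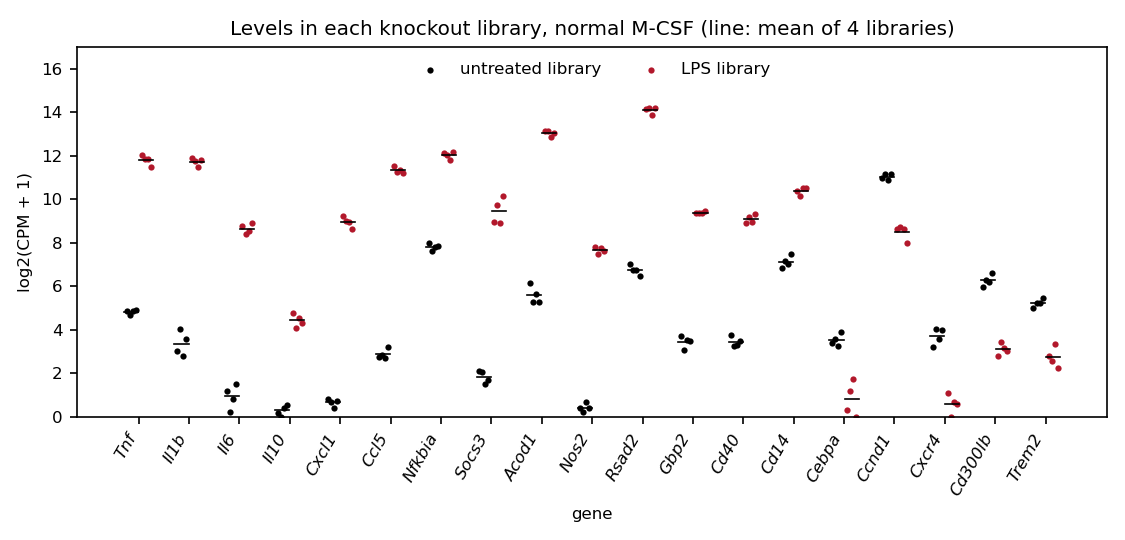
Levels of 19 genes named in the text in each of the 8 knockout libraries, as log2(CPM + 1), black without LPS and red with LPS, with a line at each group's mean. The groups do not overlap for any of the 19 genes; 14 lie higher with LPS and Cebpa, Ccnd1, Cxcr4, Cd300lb and Trem2 lie lower.

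Cytokine genes rose almost without exception. Of 22 tested TNF and interleukin genes (24 in the table), 20 rose, none fell, and Tgfb1 and Vegfa did not pass the test. The median log2 change was 5.52, or 4.85 with Il12a, which had no untreated count, set at its bound. Of the 22, 4 had under 10 counts without LPS and passed the filter through other groups than the untreated one. Tnf stood at 28.1, 24.6, 27.9 and 29.3 CPM without LPS and 4224, 3686, 3633 and 2840 CPM with it, a log2 change of 7.03 (SE 0.20). Il1b, for the pyrogen interleukin-1 beta, stood at 7.03, 15.5, 5.97 and 10.7 CPM without LPS and 3795, 3456, 2813 and 3524 CPM with it. Il6 stood at 1.24, 0.152, 0.746 and 1.86 CPM without LPS and 429.5, 335, 369 and 475 CPM with it. The LPS range lay far above the untreated range for all 3. Il12b, for the p40 chain shared by interleukins 12 and 23, stood at 3.41, 3.04, 2.901 and 1.55 CPM without LPS and 1997, 2303, 1187 and 2479 CPM with it, with LPS library 3 the lowest of its group. Il12a, for the partner chain of interleukin 12, had no count without LPS and 1.42 ± 0.881 CPM with it, at least 16.4-fold higher. Il23a, for the partner chain of interleukin 23, had 1 count without LPS, and its ratio was 97.5 (95% counting interval 16.9 to 3909). The anti-inflammatory Il10 stood at 0.103, 0, 0.332 and 0.465 CPM without LPS and 26.4, 16.1, 21.9 and 18.6 CPM with it, a log2 change of 6.401 (SE 0.47). Il1rn, the antagonist of the interleukin-1 receptor, rose from 31.5 ± 4.26 to 358 ± 72.97 CPM. Il15, Il27 and Il18 had log2 changes of 4.14, 4.98 and 3.27, and the TNF family member Tnfsf15 of 7.67.

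Among 7 tested genes of interferons and receptors of their family (10 in the table), 3 rose. Ifnb1, the interferon beta gene, had no count without LPS and 8.08, 5.93, 7.96 and 11.8 CPM with it, at least 97.8-fold higher. Il10ra rose from 18.6 ± 2.58 to 89.95 ± 11.97 CPM and Ifngr2 from 49.97 ± 7.78 to 91.6 ± 10.6 CPM. Ifnar1, a chain of the interferon beta receptor, stood at 153 ± 11.9 and 163 ± 8.81 CPM and did not pass the test. Ifna2, Ifna4 and Ifng were below the filter on low counts.

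Most chemokine genes rose. Of 13 CC chemokine genes, 11 rose and none fell (median 4.90), with 4 of them under 10 counts without LPS, and of 10 tested CXC chemokine genes (12 in the table), 9 rose and none fell (median 7.37). Ccl3 and Ccl4, attractants of monocytes and T cells, stood at 83.9, 96.4, 83.5 and 111 CPM and 122, 124, 110.2 and 182 CPM without LPS. With LPS they stood at 8589, 7088, 7466 and 7896 CPM and 12120, 10270, 11350 and 10320 CPM, log2 changes of 6.37 and 6.36. Ccl2, the monocyte attractant, was already present without LPS at 356, 362, 376 and 478 CPM and reached 5753, 5135, 6503 and 5768 CPM. Cxcl2, a neutrophil attractant, stood at 51.9, 64.1, 40.03 and 67.3 CPM without LPS and 16650, 12710, 11520 and 12670 CPM with it. Ccl5 stood at 5.69, 6.07, 5.55 and 8.06 CPM without LPS and 2922, 2414, 2565 and 2375 CPM with it, and Cxcl10, an interferon-inducible attractant of T cells, at 29.3, 24.4, 27.2 and 27.8 CPM without LPS and 12410, 10950, 12810 and 11920 CPM with it. The LPS range lay above the untreated range for each of these. Cxcl14, at 35.7 ± 4.66 and 30.9 ± 5.46 CPM, was the CXC gene that did not pass the test.

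The chemokine genes lie in clusters, and members of a cluster rose together but not by the same amount. On chromosome 11, Ccl2, Ccl7, Ccl12 and Ccl8 lie between 82035577 and 82116799 (GRCm38), and all 4 rose by more than 2-fold, with log2 changes of 3.88, 4.900, 5.02 and 4.63. Further along the same chromosome, between 83525778 and 83664683, all of Ccl5, Ccl9, Ccl6, Ccl3 and Ccl4 rose, 4 of them by more than 2-fold; Ccl9 had a log2 change of 2.74 and Ccl5 of 8.67. On chromosome 5, Cxcl3, Cxcl1 and Cxcl2 lie between 90759298 and 90905938 together with Cxcl5, Ppbp and Pf4. Of these 6, 5 were tested and rose, 3 by more than 2-fold. Cxcl9, Cxcl10 and Cxcl11, between 92321331 and 92363296, had log2 changes of 7.72, 8.79 and 7.63.

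Receptors for attractants split. Of 17 tested (19 in the table), 7 rose, 7 fell and 3 did not pass the test. Fpr2, a formyl peptide receptor, stood at 5.79, 4.25, 4.81 and 6.51 CPM without LPS and 166, 279, 139.7 and 281 CPM with it. Fpr1 rose from 0.352 ± 0.299 to 35.4 ± 6.90 CPM and the chemerin-binding Ccrl2 from 6.34 ± 1.03 to 558 ± 46.2 CPM. Fpr1 is also abundant in neutrophils; the neutrophil marker S100a8 stood at 19.6 and 41.8 CPM, S100a9 at 26.96 and 50.02 CPM and Elane at 3.32 and 3.91 CPM without and with LPS, and the part of neutrophils in the result was not tested. Cxcr4, the receptor for CXCL12, stood at 8.17, 15.3, 11.02 and 14.6 CPM without LPS and 1.09, 0, 0.585 and 0.498 CPM with it, a log2 change of -4.401 (SE 0.40). The lipid receptors S1pr1 and Gpr183 fell from 64.5 ± 4.92 to 8.23 ± 1.36 CPM and from 90.98 ± 10.9 to 12.6 ± 6.74 CPM. The monocyte receptors Cx3cr1 and Ccr2 fell by less, with log2 changes of -0.92 and -0.72; the Ccr2 call was lost with library pairs summed (adjusted p = 0.0532). Ccr7, the lymph node homing receptor, had 1 count without LPS and a ratio of 79.5 (95% counting interval 13.7 to 3198).

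Growth factors of the myeloid lineage and most of their receptors rose. Of 8 tested genes (10 in the table), 7 rose and Csf1r, the M-CSF receptor, at 431 ± 54.8 and 549 ± 69.3 CPM, did not pass the test. Csf1, the M-CSF gene, stood at 19.9, 18.2, 19.6 and 18.3 CPM without LPS and 295, 251, 247 and 241 CPM with it, a log2 change of 3.76 (SE 0.18). Csf3 had no count without LPS and 7.20 ± 4.05 CPM with it, at least 83.5-fold higher, and Csf2 went from 0.181 ± 0.297 to 9.39 ± 5.88 CPM.

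The interferon response genes moved in a single direction. All 36 genes of the type I interferon list were tested and rose, 33 by more than 2-fold, with a median of 3.32. Like the other lists, this list was chosen with earlier results of these data known, so the count is a description only. Rsad2, the antiviral enzyme viperin, stood at 130.2, 105, 105 and 88.5 CPM without LPS and 18160, 18700, 14840 and 18730 CPM with it, a log2 change of 7.36 (SE 0.28). Library 3 was the lowest of the LPS group and still far above the untreated range. Ifit1, which binds foreign RNA caps, rose from 37.8 ± 7.16 to 4263 ± 544 CPM. Mx1, Oasl1 and the ubiquitin-like Isg15 had log2 changes of 6.195, 6.73 and 4.701. The least moved were Ifitm3, from 799 ± 163 to 1965 ± 175 CPM, and Bst2, from 79.7 ± 15.3 to 204 ± 36.1 CPM. Of 13 tested interferon-inducible GTPases (15 in the table), which attack the vacuoles of intracellular microbes, 12 rose, all by more than 2-fold, and the median was 5.36. Gbp2 stood at 11.9, 7.44, 10.6 and 10.1 CPM without LPS and 661, 648, 648 and 698 CPM with it, and Iigp1 rose from 4.06 ± 2.204 to 356 ± 82.6 CPM. Ifit2, Ifit3 and Ifit1 lie side by side on chromosome 19 between 34550550 and 34650009, and Oas2, Oas3 and Oas1a on chromosome 5 between 120730333 and 120907544; every gene of both groups rose by more than 2-fold. Gbp, Oas and Ifit genes have close paralogs, and reads that fit several copies may have been split or lost between them in the authors' counting.

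Promoter sequences of genes with large rises are shown because these genes moved together and hold letters that NF-kB and interferon-activated factors are known to bind. The windows searched run from 250 bases before to 50 after a RefSeq start (GRCm38.p6), and 9096 tested genes have one. The letters GGGNNNTTCC (NF-kB) and GAAANNGAAA (the core of the interferon-stimulated response element) were searched on both strands. The NF-kB letters were in 5.56% of all 32851 windows, 10.2% of the 943 windows of genes risen more than 2-fold, 5.82% of the 687 windows of genes fallen more than 2-fold and 6.13% of windows of the other tested genes. The interferon letters were in 3.44%, 10.7%, 2.47% and 2.71% of the same sets. By list, the NF-kB letters were in 4 of 9 windows of CXC chemokine genes, 7 of 20 of the feedback inhibitors, 2 of 10 of the interferon-inducible GTPases, 6 of 35 of the type I interferon list, 4 of 24 of the cytokines and 1 of 9 of the CC chemokines. The interferon letters were in 9 of 10 windows of the GTPases, 13 of 35 of the type I interferon list, 2 of 9 of the CXC chemokines, 3 of 24 of the cytokines, 2 of 20 of the feedback inhibitors and 0 of 9 of the CC chemokines. These windows are of 8 of the 13 CC and 9 of the 12 CXC chemokine genes. The other lists had windows for 16 of 17 feedback inhibitors, 18 of 24 cytokines, 9 of 15 GTPases and 28 of 36 type I interferon genes. Members without a window, such as Ccl2, Ccl4, Ccl5 and Ccl7, were not searched. A match is a description of the letters, not of binding. Below are the 250 bases before the start, 5′ to 3′ on the gene's strand, with every match in capitals, for genes named above or in a list that hold each motif, taken by fitted fold; the fitted folds of Serpina3g and Ifnb1 rest on 0 untreated counts, and at their bounds these would rank lower; positions count back from the start.
Serpina3g (chr12:104235897-104236146, plus strand): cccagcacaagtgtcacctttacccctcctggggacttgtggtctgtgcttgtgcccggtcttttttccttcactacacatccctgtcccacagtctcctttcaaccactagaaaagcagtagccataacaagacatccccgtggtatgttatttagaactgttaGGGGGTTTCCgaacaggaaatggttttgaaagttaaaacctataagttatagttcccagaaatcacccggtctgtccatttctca
Cxcl1 (chr5:90890995-90891244, plus strand): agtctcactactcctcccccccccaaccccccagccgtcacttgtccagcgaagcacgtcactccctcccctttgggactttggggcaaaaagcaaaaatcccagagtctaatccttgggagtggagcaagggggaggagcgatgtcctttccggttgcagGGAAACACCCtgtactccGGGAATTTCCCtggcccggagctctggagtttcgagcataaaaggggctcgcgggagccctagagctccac
Ifnb1 (chr4:88522795-88523044, minus strand): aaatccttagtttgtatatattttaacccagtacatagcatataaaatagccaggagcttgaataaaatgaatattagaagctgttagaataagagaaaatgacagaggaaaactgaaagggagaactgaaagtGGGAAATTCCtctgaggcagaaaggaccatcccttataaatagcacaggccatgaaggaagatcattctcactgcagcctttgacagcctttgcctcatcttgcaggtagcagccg
Cxcl10 (chr5:92348890-92349139, minus strand): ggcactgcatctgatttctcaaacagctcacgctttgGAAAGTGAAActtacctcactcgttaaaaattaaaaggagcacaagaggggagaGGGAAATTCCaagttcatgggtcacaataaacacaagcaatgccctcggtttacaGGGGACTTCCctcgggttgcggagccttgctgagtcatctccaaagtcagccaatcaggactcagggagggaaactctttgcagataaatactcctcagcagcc
Edn1 (chr13:42301226-42301475, plus strand): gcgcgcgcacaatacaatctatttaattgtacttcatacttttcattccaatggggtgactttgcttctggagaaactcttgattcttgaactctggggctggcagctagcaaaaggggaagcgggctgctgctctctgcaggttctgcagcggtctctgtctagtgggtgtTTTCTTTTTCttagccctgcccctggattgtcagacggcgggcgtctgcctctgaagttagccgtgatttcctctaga
Rsad2 (chr12:26456453-26456702, minus strand): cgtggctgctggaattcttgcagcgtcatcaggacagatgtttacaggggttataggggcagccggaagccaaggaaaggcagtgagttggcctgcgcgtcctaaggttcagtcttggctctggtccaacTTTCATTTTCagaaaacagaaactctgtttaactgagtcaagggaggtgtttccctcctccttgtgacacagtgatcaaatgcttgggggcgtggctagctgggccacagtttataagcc
Ifit1 (chr19:34640639-34640888, plus strand): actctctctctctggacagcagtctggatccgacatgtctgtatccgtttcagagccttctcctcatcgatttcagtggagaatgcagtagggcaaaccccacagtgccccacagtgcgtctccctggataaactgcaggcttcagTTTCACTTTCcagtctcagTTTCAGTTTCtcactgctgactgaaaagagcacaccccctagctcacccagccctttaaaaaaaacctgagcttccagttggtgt

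In the Cxcl1 window, 3 matches to the NF-kB letters lie between -89 and -61, of which a pair overlap on opposite strands at -71 to -61. The Cxcl10 window holds 2 NF-kB matches, at -159 to -150 and -104 to -95, and 1 interferon match at -213 to -204, so it carries both kinds. Both kinds occur in 0.167% of all windows. The Ifnb1 window has 1 NF-kB match, at -116 to -107, and the Serpina3g window has 1, at -85 to -76. The Ifit1 window holds 2 interferon matches, at -104 to -95 and -85 to -76, and the Rsad2 and Edn1 windows 1 each, at -120 to -111 and -78 to -69. Of these 7 genes, Ifnb1 and Serpina3g had no untreated count, whereas Rsad2 started from 107 ± 17.2 CPM and Cxcl10 from 27.2 ± 2.02 CPM.

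Genes of antigen presentation and costimulation rose in part. Of 17 tested MHC class I and immunoproteasome genes (18 in the table), 16 rose, 9 by more than 2-fold, and the median was 1.46. The class I transactivator Nlrc5 rose from 8.67 ± 1.08 to 92.8 ± 10.2 CPM, the peptide transporter Tap1 from 30.8 ± 5.77 to 233 ± 0.945 CPM, and the light chain gene B2m from 1763 ± 321 to 3868 ± 463 CPM. Of 8 tested class II genes (9 in the table), 5 rose, among them H2-Ab1 from 7.64 ± 0.611 to 33.9 ± 2.98 CPM and Cd74 from 18.5 ± 4.76 to 52.7 ± 10.01 CPM. Of 16 tested costimulatory and checkpoint genes (17 in the table), 12 rose, 10 by more than 2-fold, and 3 fell; the median was 3.36. Cd40, the receptor for T cell help, stood at 12.3, 8.50, 8.79 and 10.1 CPM without LPS and 474, 575, 491 and 636 CPM with it. Cd274, which encodes PD-L1, stood at 7.45, 6.38, 6.96 and 5.89 CPM without LPS and 469, 351, 454 and 469 CPM with it, with library 2 the lowest of the LPS group. Every LPS library of both genes was above the untreated range. Cd86 and the adhesion molecule Icam1 had log2 changes of 2.27 and 4.695, and Cd69 went from 5.33 ± 0.475 to 1392 ± 78.5 CPM. The 3 that fell encode inhibitory proteins of the cell surface: Vsir (-0.93), Havcr2 (-1.11) and Cd200r1 (-1.001).

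Most genes for itaconate and nitric oxide metabolism rose, and most of the prostaglandin list did not pass the test. Of 13 tested genes for itaconate, nitric oxide and arginine metabolism (15 in the table), 11 rose and none fell, and the median was 3.31. Acod1, which makes itaconate, stood at 68.8, 37.3, 49.1 and 37.7 CPM without LPS and 9050, 9047, 7440 and 8551 CPM with it. Nos2, the inducible nitric oxide synthase, stood at 0.310, 0.152, 0.580 and 0.310 CPM without LPS and 224, 178, 214 and 194 CPM with it, a log2 change of 9.04 (SE 0.50). The groups were far apart for both. Its cofactor enzyme Gch1 rose from 21.2 ± 1.96 to 209.6 ± 34.8 CPM and the arginine transporter Slc7a2 from 2.12 ± 0.907 to 33.7 ± 4.99 CPM. Arg1 and Hmox1, at 3.26 ± 1.07 and 2.02 ± 0.705 CPM and at 85.1 ± 17.2 and 67.5 ± 17.5 CPM, did not pass the test. Arg2 had 1 count without LPS and a ratio of 122 (95% counting interval 21.2 to 4856). In the prostaglandin and lipid mediator list, 5 of 15 tested genes (17 in the table) rose, 2 fell and 8 did not pass, with a median of -0.06. Ptgs2 (cyclooxygenase-2) stood at 4.34, 3.79, 2.49 and 2.94 CPM without LPS and 2359, 1323, 1730 and 1433 CPM with it, and the downstream synthase Ptges rose from 0.807 ± 0.340 to 25.96 ± 4.88 CPM. The constitutive Ptgs1 fell from 78.3 ± 16.4 to 29.9 ± 1.801 CPM.

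Cell death and survival genes changed on both sides. Of 17 inflammasome and pyroptosis genes, 10 rose and 2 fell. The sensor gene Nlrp3 rose from 69.9 ± 16.0 to 660.1 ± 30.4 CPM, and Casp4, for the caspase (caspase-11) that binds cytosolic LPS, stood at 8.38, 8.65, 9.03 and 11.01 CPM without LPS and 139.8, 174, 131 and 179 CPM with it. Casp1 and Gsdmd had log2 changes of 2.099 and 1.55. The adaptor Pycard, at 102 ± 17.9 and 88.5 ± 9.95 CPM, did not pass, and Nlrp1b fell (-2.41). Of 25 BCL2 family and survival genes, 13 rose and 3 fell. The NF-kB target Bcl2a1b, a survival factor, rose from 52.2 ± 9.63 to 405 ± 37.8 CPM. Its near-identical copies Bcl2a1a and Bcl2a1d were counted at 31.4 ± 6.32 and 47.1 ± 9.83 CPM with LPS, and reads cannot be assigned firmly among the 3. Birc3, Cflar and Traf1, which block death receptor signals, had log2 changes of 3.73, 4.03 and 5.95. Bcl2 fell from 35.3 ± 2.68 to 14.8 ± 3.10 CPM, and Bmf, a BH3-only killer, had 2 counts with LPS.

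Most genes of cell division fell or did not pass the test. Of 30 DNA replication and S-phase genes, 19 fell, 5 of them by more than 2-fold, and 1, Mcm10, rose; the median was -0.75. The Mcm10 call was lost without any of 6 single libraries, at an adjusted p of up to 0.17, and with RLE size factors, an alternative scaling of the libraries. E2f2, a cell cycle transcription factor, stood at 67.5, 63.1, 69.3 and 56.9 CPM without LPS and 3.28, 9.15, 4.92 and 4.98 CPM with it. Cdc6, which loads the replicative helicase, stood at 32.6, 23.7, 25.7 and 23.2 CPM without LPS and 3.28, 2.97, 4.45 and 1.66 CPM with it. No LPS library of either reached the untreated range. Ccne2 and Cdt1 had log2 changes of -2.46 and -2.02, and the sliding clamp Pcna, at 349 ± 50.2 and 326 ± 34.2 CPM, did not pass. Of 25 mitosis genes, 9 fell and none rose, 12 with DESeq2, and Bub1b fell from 126 ± 25.96 to 32.5 ± 3.78 CPM. Among 17 genes of G1 control, 4 rose and 5 fell. Ccnd1, the cyclin that M-CSF induces, stood at 2002, 2258, 1882 and 2312 CPM without LPS and 395, 419, 398 and 255 CPM with it, a log2 change of -2.53 (SE 0.19). LPS library 4 was the lowest, and all 4 LPS libraries were under the untreated range. Cdkn1a, the inhibitor p21, rose from 983 ± 159.7 to 3516 ± 292 CPM and Ccnd2 from 215 ± 16.7 to 430.2 ± 51.3 CPM.

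**Figure D3:**
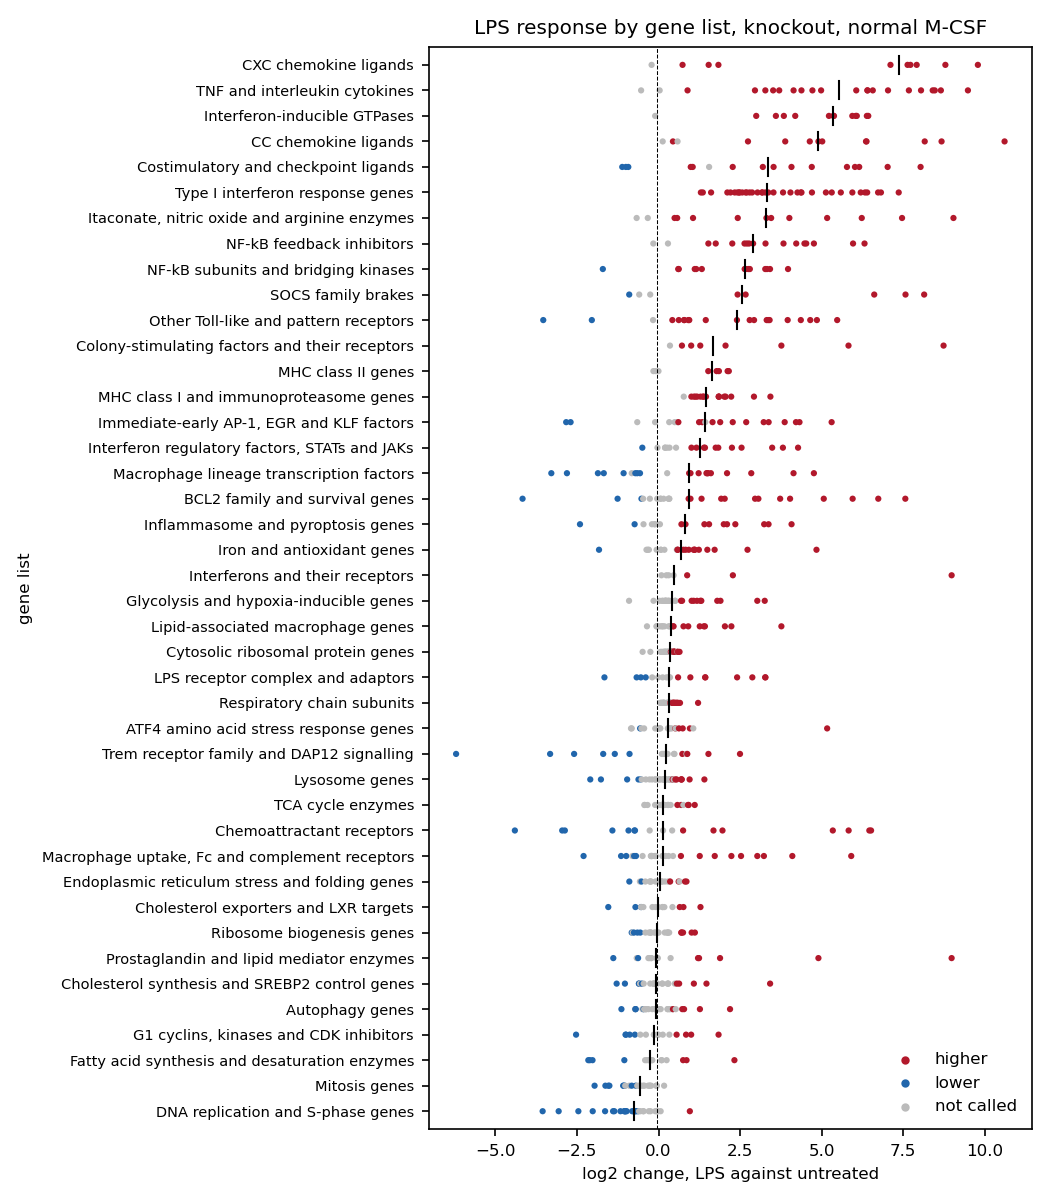
Log2 change with LPS of each tested gene, by gene list, ordered by the list's median (black tick); red rose, blue fell and grey did not pass the test, and the dashed line is the median of all tested genes, -0.05. CXC chemokines have the highest median (7.37) and S-phase genes the lowest (-0.75); the cytokine median of 5.52 uses a fitted value for Il12a and is 4.85 with that gene at its bound, under the GTPases (5.36) and CC chemokines (4.90).

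Metabolic genes moved by smaller amounts. Of 26 glycolysis and hypoxia-inducible genes, 11 rose and none fell. The hexose transporter Slc2a6 stood at 21.6, 30.7, 25.6 and 37.8 CPM without LPS and 216, 207, 239.6 and 277 CPM with it, without overlap. Slc2a1, Pfkfb3 and Hif1a had log2 changes of 1.800, 1.898 and 1.31, and Ldha, at 596 ± 69.4 and 733 ± 49.9 CPM, did not pass. Of 24 TCA cycle genes 5 rose, near the 20.9% of all genes that rose, and of 40 respiratory chain genes 14 rose. None fell in either list, and the respiratory median was 0.32. With RLE size factors, 4 TCA cycle genes rose and 1 fell, and 12 respiratory chain genes rose and none fell. Cycs, which encodes cytochrome c, rose from 152 ± 13.1 to 351 ± 18.1 CPM. Of 42 tested ribosomal protein genes (44 in the table), 14 rose and none fell; with RLE size factors 9 rose and 1 fell.

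The shares of lipid genes that rose and that fell were near those of all genes (20.9% and 21.8%). Of 25 tested cholesterol synthesis and SREBP2 genes (26 in the table), 5 rose and 5 fell. Ch25h, which makes the antiviral 25-hydroxycholesterol, rose from 48.3 ± 5.003 to 516 ± 101 CPM. Of 16 tested fatty acid genes (18 in the table), 3 rose and 4 fell: the desaturase Scd2 stood at 212, 267, 230.4 and 264 CPM without LPS and 55.5, 62.3, 68.8 and 52.8 CPM with it, and Elovl6, Acsl3 and Fasn had log2 changes of -2.105, -2.15 and -1.05. The acyl-CoA synthetase Acsl1 rose (2.33). Among 15 cholesterol exporters and LXR targets, 3 rose and 3 fell, and Abca1 and Apoe did not pass, at 80.5 ± 14.5 and 70.7 ± 4.61 CPM and at 507 ± 34.98 and 554 ± 35.8 CPM.

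Of the stress and recycling lists, the iron and antioxidant list had a larger share of risen genes than the 20.9% of all genes, and the others were near or below it. Of 23 ATF4 target genes 5 rose and 1 fell, led by the cystine transporter Slc7a11, from 1.17 ± 0.266 to 43.6 ± 7.604 CPM. Of 24 ribosome biogenesis genes 5 rose and 4 fell, with Rrs1 at 1.11. Of 21 tested endoplasmic reticulum genes (22 in the table) 4 rose and 2 fell, and Herpud1 rose by 0.81. Of 37 lysosome genes 8 rose and 5 fell, and of 30 autophagy genes 5 rose and 4 fell. The protease Ctsc rose from 262 ± 22.0 to 695 ± 40.98 CPM, whereas Tfeb, the transcription factor of lysosome genes, fell from 9.42 ± 2.74 to 2.56 ± 1.52 CPM. The autophagy receptor Sqstm1 (p62) rose from 368 ± 19.2 to 1681 ± 168 CPM. Of 22 tested iron and antioxidant genes (25 in the table), 13 rose and 1 fell. The iron importer Slc11a2 rose from 17.3 ± 1.88 to 114 ± 18.4 CPM, and Slc40a1, the iron exporter ferroportin, stood at 86.4, 98.8, 92.1 and 104 CPM without LPS and 27.1, 20.3, 29.9 and 29.9 CPM with it. Lcn2, which binds bacterial iron carriers, stood at 2.48, 2.12, 1.82 and 3.88 CPM without LPS and 74.1, 80.8, 62.3 and 72.2 CPM with it. Sod2 and Prdx5, which remove superoxide and peroxides in mitochondria, had log2 changes of 3.45 and 1.72.

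Transcription factors of macrophage identity were reordered. Of 21, 11 rose, 8 fell and 2 did not pass the test. Cebpa, the founding factor of the myeloid lineage, stood at 9.41, 10.9, 8.45 and 13.9 CPM without LPS and 0.218, 1.24, 2.34 and 0 CPM with it. Its relative Cebpd stood at 43.03, 37.5, 41.1 and 36.6 CPM without LPS and 734, 645, 700.5 and 707 CPM with it, a log2 change of 4.14 (SE 0.15). These family members moved in opposite directions, and neither pair of groups overlapped. Cebpb and Spi1 (PU.1) rose by 2.099 and 1.47. Mef2c and Fli1 had log2 changes of -1.68 and -1.86. Of 27 tested uptake, Fc and complement genes (30 in the table), 9 rose and 5 fell. The inhibitory Fc receptor Fcgr2b rose from 62.8 ± 13.9 to 588 ± 40.99 CPM and the high-affinity Fcgr1 from 49.5 ± 1.79 to 285 ± 35.2 CPM. Complement C3 and factor B (Cfb) rose by 4.099 and 5.904. Cd93, a receptor linked to the clearance of dying cells, fell from 784 ± 31.8 to 354 ± 59.9 CPM.

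TREM2 has relatives and signalling partners, and as a group their share of risen genes was near the 20.9% of all genes. Of 19 tested genes of the Trem family and DAP12 signalling (20 in the table), 4 rose, 6 fell (21.8% of all genes fell) and 9 did not pass the test. Treml1, which encodes a related receptor best known from platelets, stood at 3.62, 5.31, 3.98 and 4.805 CPM without LPS and had 1 count with it, a ratio of untreated to LPS of 99.4 (95% counting interval 17.6 to 3950). Cd300lb, a receptor that pairs with DAP12, stood at 61.4, 77.1, 71.1 and 96.7 CPM without LPS and 5.899, 9.64, 7.96 and 7.14 CPM with it, a log2 change of -3.32 (SE 0.45). Both were lower in all 4 LPS libraries. Residual Trem2 counts fell too (-2.59). Tyrobp, which encodes DAP12, stood at 767 ± 94.8 and 931 ± 64.9 CPM and did not pass. The kinase Syk, recruited by DAP12, rose from 58.1 ± 7.03 to 168 ± 14.3 CPM, and Pik3ap1, an adaptor of PI3 kinase, from 146 ± 20.6 to 822 ± 358 CPM. Inpp5d (SHIP1), which opposes PI3 kinase, fell from 74.4 ± 11.99 to 22.96 ± 3.94 CPM. Among 20 genes of the lipid-associated macrophage state, which depends on TREM2 in several tissues, 10 rose and none fell; Spp1 rose from 4210 ± 421 to 7156 ± 960.5 CPM and Gpnmb, at 717 ± 128 and 772 ± 58.1 CPM, did not pass.

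The question that the genotypes address is whether LPS acts differently without TREM2. Over the 11244 genes, the log2 changes of knockout and WT cells in normal M-CSF had a Pearson correlation of 0.896 across genes, which are not independent replicates. Of the 4796 genes called in knockout cells, 3268 were called in the same direction in WT cells, 68.1% of the knockout calls and 80.5% of the 4061 WT calls, and 5 were called in opposite directions. The difference itself passed the test in 60 genes (0.534%), 37 with a knockout minus WT value above 0 (0.329%) and 23 below 0 (0.205%), and 1179 had an unadjusted p under 0.05. In 32 of the 60 the response had the same sign and was larger in knockout cells, in 6 it was smaller, and in 22 the signs were opposite. This count depends on how libraries are treated: it was 0 (520 at an unadjusted p under 0.05) when libraries 1 and 3 and libraries 2 and 4 were summed, 209 with DESeq2, 120 with the 4 groups fitted alone and 102 without the filter on low counts. It was 31, 30 and 36 without knockout LPS library 4, untreated library 2 and untreated library 3, and 36, 34, 31 and 39 without WT LPS libraries 1, 2 and 4 and WT untreated library 3. Of the 29 differences named below, 14 passed in each fit that left out a library and in each other alternative except the summed pairs, and none passed with the pairs summed. Leaving out 1 library keeps the library it resembles in the fit, so such fits cannot show how the calls depend on the pairs.

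**Figure D4:**
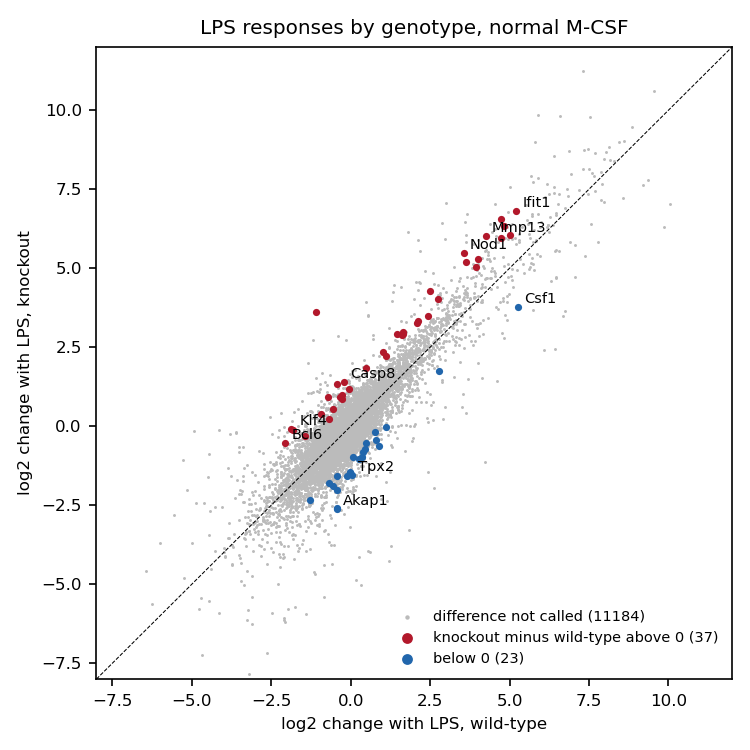
Log2 change with LPS in WT cells (across) and knockout cells (upwards), both in normal M-CSF, for the 11244 genes tested, with the line of equal change dashed. Red marks the 37 genes with a called knockout minus WT difference above 0 and blue the 23 below 0; most genes lie near the line.

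The 14 that passed in those fits were Nod1, Mmp13, Fos, Klf4, Casp8, Bcl6, Tnip3 and Idh3b above 0 and Akap1, Trem2, Gxylt1, Tpx2, Csf1 and Smurf2 below 0. With the pairs summed, edgeR's quasi-likelihood test gave these 14 adjusted p-values of 0.516 to 0.959. Mmp13, a collagenase, stood at 6.31, 9.26, 7.87 and 8.84 CPM without LPS and 509, 535, 443 and 604 CPM with it in knockout cells. In WT cells it stood at 23.8, 20.6, 17.98 and 18.01 CPM and 284, 447, 381 and 423 CPM, and the difference in log2 change was 1.77 (SE 0.33, adjusted p = 0.00523). The untreated level was lower in all 4 knockout libraries, while the LPS levels overlapped. Bcl6, a repressor of inflammatory genes, went from 41.5 ± 7.04 to 28.9 ± 5.37 CPM in knockout and from 56.7 ± 9.36 to 13.6 ± 2.91 CPM in WT cells, and Klf4 from 34.3 ± 4.82 to 31.8 ± 5.79 CPM in knockout and from 58.6 ± 6.84 to 16.9 ± 4.06 CPM in WT cells. In WT cells both fell; in knockout cells Bcl6 fell by less and Klf4 did not pass the test, and the differences were 1.53 (SE 0.25) and 1.695 (SE 0.28). Fos went from 15.1 ± 3.24 to 37.97 ± 8.03 CPM in knockout and from 42.9 ± 6.95 to 31.8 ± 2.61 CPM in WT cells, so the groups differed mainly before LPS. Casp8, the apical caspase of death receptors, went from 66.4 ± 2.76 to 176 ± 28.7 CPM in knockout and from 114 ± 78.2 to 99.3 ± 7.61 CPM in WT cells, where untreated library 1 held 231.1 CPM and the others 63.6 to 82.3 CPM. Nod1, a sensor of cell wall fragments, differed by 1.92, Tnip3, an A20-binding inhibitor, by 1.198 and the TCA cycle gene Idh3b by 1.25.

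Csf1 had the smaller response in knockout cells. In knockout libraries it stood at 19.9, 18.2, 19.6 and 18.3 CPM without LPS and 295, 251, 247 and 241 CPM with it, and in WT libraries at 5.13, 5.11, 5.81 and 6.33 CPM and 184, 231, 209.5 and 233 CPM. The knockout libraries were above the WT libraries both without and with LPS, by more without it, so that the difference in log2 change was -1.501 (SE 0.23, adjusted p = 0.000861). Tpx2, a spindle assembly factor, went from 307 ± 34.03 to 106 ± 7.39 CPM in knockout and from 179.8 ± 20.6 to 185 ± 20.9 CPM in WT cells, a difference of -1.58 (SE 0.34). Akap1, a mitochondrial anchor of protein kinase A, went from 29.4 ± 5.08 to 4.698 ± 1.75 CPM in knockout and from 20.7 ± 1.92 to 15.2 ± 2.27 CPM in WT cells, a difference of -2.19 (SE 0.39). Gxylt1 and Smurf2 differed by -1.58 and -1.44. Trem2 differed by -2.15, on the residual knockout counts given above. Tm9sf4 and Mmut were also called below 0, and in both the untreated knockout libraries 2 and 4 (180.5 and 171 CPM for Tm9sf4) lay above libraries 1 and 3 (89.4 and 86.7 CPM).

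**Figure D5:**
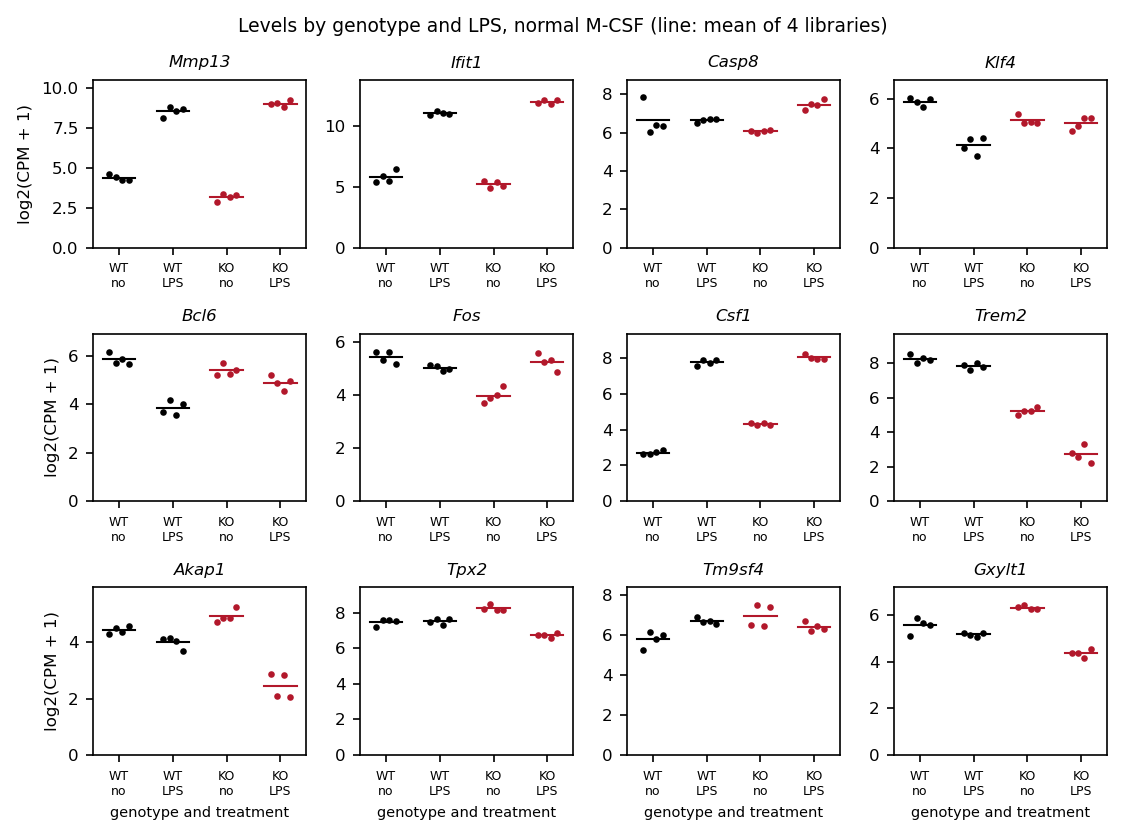
Levels in each library as log2(CPM + 1) for 12 genes with a called difference between the genotypes' LPS responses, for WT (black) and knockout (red) cells without and with LPS in normal M-CSF; lines are means of 4 libraries. Klf4 and Bcl6 fall with LPS in WT cells, Csf1 starts higher in knockout cells, and Ifit1 reaches a higher level with LPS in knockout cells.

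In the interferon response, 3 of the 36 type I interferon genes had a called difference, Ifit1, Cmpk2 and Usp18, all above 0, and the list's median log2 change was 3.32 in knockout and 2.80 in WT cells. Cmpk2, for a mitochondrial nucleotide kinase, stood at 2243, 2060, 2225 and 2135 CPM with LPS in knockout and 888, 1120, 1173 and 1032 CPM in WT libraries, without overlap. Ifit1 stood at 3992, 4667, 3630 and 4764 CPM with LPS in knockout and 1927, 2424, 2278 and 2051 CPM in WT libraries, also without overlap. Their differences were 1.51 (SE 0.36) and 1.61 (SE 0.38), and that of Usp18, which restrains interferon signalling, 1.29 (SE 0.31). Gbp2, of the GTPase list, differed by 1.01 (SE 0.24). The medians of the GTPase list were 5.36 in knockout and 4.38 in WT cells, and those of the CXC chemokines 7.37 and 6.61; none of the CC or CXC chemokine genes had a called difference. The calls for Ifit1, Cmpk2, Usp18 and Gbp2 were each lost in fits that left out a library, at adjusted p-values of up to 0.108, 0.094, 0.108 and 0.117. The other named differences were Tnfsf10, Cacybp, Ms4a4c, Csf2ra, Fcgr3 and Cyp27a1 above 0 and Nrde2, Champ1 and Nfkbie below 0.

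Against knockout cells in low M-CSF, the same genotype under less growth factor by label, the LPS response differed in more genes. The difference passed the test in 3971 genes (35.3%), 2477 with a normal minus low value above 0 (22%) and 1494 below 0 (13.3%). In low M-CSF, scaling factors were 0.598 to 0.671 with LPS and 1.17 to 1.24 without, further apart than in normal M-CSF. The low M-CSF libraries held 3068863 to 6248835 counts with LPS and 5333519 to 15585423 without. The part of composition and depth in these differences was not tested. With RLE size factors the split was even, with 49.6% of 3687 calls above 0 in place of 62.4%, and the median difference over all genes moved from 0.28 to 0.11. In 2438 of the 3971 genes the change had the same sign and was smaller in normal M-CSF, in 185 it was larger, and in 1348 the signs were opposite. The log2 changes had a Pearson correlation of 0.792 across genes. With paired libraries summed, 1702 genes passed.

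Ccnd2, a G1 cyclin, went from 215 ± 16.7 to 430.2 ± 51.3 CPM in normal M-CSF and from 22.9 ± 2.48 to 2445 ± 658 CPM in low M-CSF, a difference of -5.74 (SE 0.25). Ccne1, a cyclin of S-phase entry, fell in normal M-CSF, from 22.98 ± 2.09 to 8.73 ± 1.57 CPM, and rose in low M-CSF, from 1.41 ± 0.338 to 21.2 ± 10.8 CPM. Tnfsf9, the ligand of the costimulator 4-1BB, went from 27.4 ± 3.58 to 50.6 ± 7.86 CPM in normal and from 3.39 ± 0.896 to 336 ± 12.3 CPM in low M-CSF. In these 3 genes the untreated level was lower and the LPS level higher in low M-CSF. The scavenger receptor Olr1 reached 2.85 ± 2.11 CPM with LPS in normal and 78.3 ± 17.3 CPM in low M-CSF, and Septin11 95.5 ± 11.8 and 468 ± 90.9 CPM. Atp10a, Ptgs2os2, Slfn9, Nxpe3 and Rnd1 also had differences below 0; Ptgs2os2 is an RNA from beside Ptgs2.

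Differences above 0 came from genes that rose more in normal M-CSF and from genes that fell more in low M-CSF. Ccl17 reached 116 ± 32.5 CPM with LPS in normal and 24.8 ± 6.49 CPM in low M-CSF, and Gm13889 40.5 ± 5.82 and 16.3 ± 5.07 CPM. Ccl17 and Gm13889 had only 2 and 1 counts without LPS in normal M-CSF, so the sizes of their differences are uncertain. Tubg1, for gamma-tubulin, went from 24.97 ± 2.14 to 19.4 ± 1.78 CPM in normal and from 6.32 ± 1.34 to 0.167 ± 0.333 CPM in low M-CSF, a difference of 4.78 (SE 0.66). Its level with LPS in low M-CSF was near 0, so the size of this difference is uncertain too. Pck2, a mitochondrial enzyme of phosphoenolpyruvate synthesis, went from 64.7 ± 5.22 to 33.7 ± 5.06 CPM and from 72.8 ± 15.3 to 3.19 ± 1.56 CPM. The clock output gene Dbp, Arhgap19, Espl1, Gpr146 and Bmyc fell in both and by more in low M-CSF. Dnajc28 was at 0 counts with LPS in low M-CSF, so its fitted difference is no bound. By list, 22 of 42 tested ribosomal protein genes, 22 of 37 lysosome genes, 19 of 40 respiratory chain genes, 16 of 30 autophagy genes and 11 of 24 TCA cycle genes had differences above 0, against 1, 2, 1, 2 and 0 below. Median log2 changes of these lists in normal and low M-CSF were 0.36 and -0.20, 0.21 and -0.75, 0.32 and -0.27, -0.09 and -1.13, and 0.14 and -0.41. With RLE size factors, which move all genes, the counts above 0 were 13, 20, 11, 14 and 8, the counts below 0 were 3, 3, 1, 2 and 0, and the median differences kept their sign, from 0.40 to 0.72 against 0.11 over all genes. The interferon list went the other way, with 1 difference above 0 and 12 below 0 among 36 genes and medians of 3.32 in normal and 4.23 in low M-CSF; with RLE size factors 1 was above 0 and 14 below.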

How the data were processed

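The authors deposited unnormalised gene counts (whole reads) of strand-specific 3'-end libraries; the submitters' processing notes name STAR, HTSeq, DESeq2 and mm10, without versions, and whether counting used strand is not given in the sources used here. Of its identifiers, 23969 carry a symbol from RefSeq's gene table. Counts of all 8 groups of 4 libraries were fitted together with edgeR 4.0.16 in R 4.3.3 (TMM scaling, filterByExpr, quasi-likelihood F test, Benjamini-Hochberg adjustment over all genes tested, threshold 0.05); changes beyond 2-fold were tested with glmTreat, and differences between responses as contrasts of the same fit. CPM were computed from effective library sizes. Tested genes had to pass a filter that a gene can pass through its higher group alone. A total of 0 counts was taken to allow 3 counts over the 4 libraries (0.0863 CPM untreated, 0.129 CPM with LPS); intervals of ratios are 95% and, like these limits, cover counting error only. The counts model was tested on simulated data for the LPS comparison in knockout cells (10711 genes). There 16.4% of genes changed 1.5-fold, 56.7% of those changed 2-fold and 95.5% of those changed 4-fold were recovered. Of the 116 calls, 4 were false. The real libraries had 4796 calls, scaling factors that differed with LPS, and libraries alike in pairs. Whether these rates hold for them was not tested. Named genes are the 15 largest rises and falls (called, groups not overlapping, mean of at least 20 CPM in the higher group), members of 48 lists, the 10 largest differences in each direction and test at that level, and the 5 highest genes outside the lists in each direction. Members and lists were chosen with earlier results of these data known. Gene positions and promoters are RefSeq's, GRCm38.p6. A few list members that the counts include are not reported here by name. Alternatives were RLE size factors, no filter, DESeq2 1.42.0, a replicate block, the compared groups alone, summed library pairs and leaving out each library.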

Additional observations from a re-analysis of the deposited data

Results flagged for a closer look

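In 5 of 105 groups of 4 libraries checked, a single library stood apart from the other 3, by a gap to the nearest other that passed Dixon's 95% critical value; chance gives about 1 in 20. With LPS these were Lpin1 in library 4 (5.479 CPM), Rsad2 in library 3 (14840 CPM), Cd274 in library 2 (351.3 CPM) and Ccnd1 in library 4 (255.2 CPM), and without LPS it was Ccl2 in library 4 (477.7 CPM).

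Differences between the LPS responses of knockout and WT cells, as knockout minus WT on the log2 scale, passed edgeR's test for the following named genes. Above 0 were Nod1 (1.92), Tnfsf10 (1.83), Cyp27a1 (1.79), Mmp13 (1.77), Fos (1.76), Klf4 (1.70), Casp8 (1.61), Cacybp (1.61), Ifit1 (1.61), Ms4a4c (1.54), Bcl6 (1.53), Cmpk2 (1.51), Usp18 (1.29), Csf2ra (1.29), Idh3b (1.25), Tnip3 (1.198), Gbp2 (1.01) and Fcgr3 (0.889). Below 0 were Akap1 (-2.19), Trem2 (-2.15), Gxylt1 (-1.58), Tpx2 (-1.58), Tm9sf4 (-1.52), Csf1 (-1.50), Nrde2 (-1.48), Mmut (-1.47), Smurf2 (-1.44), Champ1 (-1.36) and Nfkbie (-1.03). None of these 29 passed with libraries 1 and 3 and libraries 2 and 4 summed.

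Differences between normal and low M-CSF in knockout cells, as normal minus low, passed for Dnajc28 (6.39, a fitted value against a group at 0), Ccl17 (4.89), Gm13889 (4.81), Tubg1 (4.78), Dbp (4.17), Espl1 (3.98), Arhgap19 (3.87), Gpr146 (3.67), Bmyc (3.65) and Pck2 (3.62). Below 0 were Tnfsf9 (-5.76), Ccnd2 (-5.74), Ccne1 (-5.29), Atp10a (-4.91), Olr1 (-4.84), Ptgs2os2 (-4.71), Slfn9 (-4.33), Nxpe3 (-4.28), Septin11 (-4.21) and Rnd1 (-4.08). Of these 20, 19 passed in every fit that left out a library and with the pairs summed, and Dnajc28 did not. The sizes of the Ccl17, Gm13889 and Tubg1 differences rest on a group near 0 counts.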

How the results depend on the processing

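The count of genes called for LPS in knockout cells, 4796, was 3204 with library pairs summed, 5104 with DESeq2 and between 4297 and 4633 without 1 library, all within 1.5 times; the 1563 beyond 2-fold ranged from 1287 to 1591. Of 229 named LPS calls, 223 were called in every fit that left out a library and in the other alternatives except the summed pairs, and 222 with pairs summed; those that were lost are Tlr4, Ly96, Sigirr, Irak1, Irak4 and Mcm10, and with pairs summed Ccr2 too. Of 297 gene results, 37 lost the call in at least 1 alternative, 3 (Csf1r, Jun, Ldha) gained it and 0 changed direction. The 60 differences between knockout and WT responses became 209 with DESeq2, 120 with the compared groups alone and 102 without the filter. They became 63 with RLE size factors, 0 with pairs summed and 30 to 60 without 1 library. Summing pairs also leaves fewer samples. The causes of the rise with DESeq2 and of the loss with pairs summed were not tested. The 3971 differences between normal and low M-CSF became 1702 with pairs summed and 3472 to 4046 without 1 library. Same-numbered LPS and untreated libraries did not deviate together from their group means: their correlations were -0.0487, -0.0894, -0.193 and -0.110. Libraries 1 and 3 of either group correlated positively with libraries 2 and 4 of the other, at 0.0429 to 0.308. All other correlations between the groups were negative, from -0.312 to -0.0487. What links these libraries was not tested, and a block by replicate number does not model it. With the replicate number as a block the counts were 4769, 1552, 47 and 3852. Trem2 in knockout against WT cells was -5.09 with LPS and -3.03 without on the log2(CPM + 1) scale, from -5.29 to -4.92 and from -3.12 to -2.95 without 1 library. Depth limits genes near the floor of 0.0863 CPM, where changes were given as bounds or as ratios with counting intervals.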
